A study of Homo sapiens with 9 samples.

Results

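Described here are 10 genes that encode enzymes of fatty acid synthesis and desaturation: ACLY, ACSS2, ACACA, FASN, ELOVL6, ELOVL5, SCD, FADS2, FADS1 and FADS3. They were taken by symbol from a count table of 23710 entries. All 10 were found, and all 10 were among the 12546 genes that passed a filter on low counts. The cells sequenced were MDA-MB-231, a triple-negative breast cancer line of human origin that is long established, grown in DMEM with serum. The groups were shUGDH-1 and shUGDH-2, each with its own hairpin against UGDH, and shNT, with a non-targeting hairpin, at 3 libraries each and 9 in all. Cells of every group, shNT included, had been transduced with a pGIPZ lentivirus, a vector that expresses the hairpin. The labels speak of biological replicates without saying whether each culture was transduced on its own or whether cells were pooled or cloned. A p-value therefore reflects only how far these particular libraries scatter. UGDH encodes UDP-glucose 6-dehydrogenase, the source of UDP-glucuronate, and the design asks which transcripts change when it is depleted. The hairpin sequences define the groups and are given in lower case, 5′ to 3′, as the labels list them.
shUGDH-1: ttgcatcaaatatgcgacg
shUGDH-2: atatacttcagatctgctg
shNT: atctcgcttgggcgagagtaag

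Cells build fatty acids in the cytosol from acetyl-CoA, which ACLY makes from citrate and ACSS2 from acetate. ACACA carboxylates acetyl-CoA to malonyl-CoA, FASN builds palmitate from it, and elongases such as ELOVL6 and ELOVL5 lengthen chains in the endoplasmic reticulum, where SCD makes monounsaturated chains and FADS2 and FADS1 desaturate essential fatty acids. Many of these genes are known targets of the SREBP transcription factors, which SCAP and INSIG proteins hold in the endoplasmic reticulum when sterols are plentiful.

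Library totals ran from 9249738 to 13328002 counts. UGDH, the target, had 7.62, 7.29 and 8.03 CPM in the shUGDH-1 libraries and 8.08, 6.62 and 6.78 CPM in the shUGDH-2 libraries, against 53.0, 55.6 and 50.2 CPM in the shNT libraries. CPM are counts scaled to a common library size by TMM. All 6 knockdown libraries lay below all 3 shNT libraries, at log2 fold changes of -2.80 and -2.89. The 6 markers chosen for MDA-MB-231 cells (VIM, CD44, AXL, CAV1, S100A4 and ITGB1) were all detected, and summed to 7982 to 8076 CPM with shUGDH-1 and 7603 to 7698 CPM with shUGDH-2, against 7726 to 7764 CPM with shNT. Of the 6, VIM and AXL rose and ITGB1 fell with shUGDH-1, and AXL rose and CAV1 and ITGB1 fell with shUGDH-2.

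Most of the enzyme transcripts were higher in both knockdowns, by very unequal amounts. With shUGDH-1, 7 of the 10 genes rose, ELOVL6 fell, and ACSS2 and ELOVL5 did not pass the test. With shUGDH-2, 6 rose, none fell, and ACSS2, FADS3, ELOVL5 and ELOVL6 did not pass. Genes counted as changed at an adjusted p below 0.05, whatever their fold, in the quasi-likelihood test of edgeR with p-values adjusted by Benjamini-Hochberg over all 12546 genes. Over all genes tested, 10.5% rose and 10.3% fell with shUGDH-1, 20.8% in all. With shUGDH-2, 8.04% rose and 6.81% fell, 14.9% in all. The median log2 fold change of the 10 genes was 0.23 with shUGDH-1 and 0.22 with shUGDH-2, beside -0.003 and -0.006 over all genes tested. SCD, FADS2, FASN, FADS1, ACACA and ACLY rose with both hairpins, and none of the 10 fell with both, where 4.72% of all genes rose and 3.61% fell with both. The hairpins were set against the same 3 shNT libraries, so these results are not independent of each other. In bulk RNA, a change in every cell, a change in some of the cells and a change in RNA per cell cannot be told apart.

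**Figure D1:**
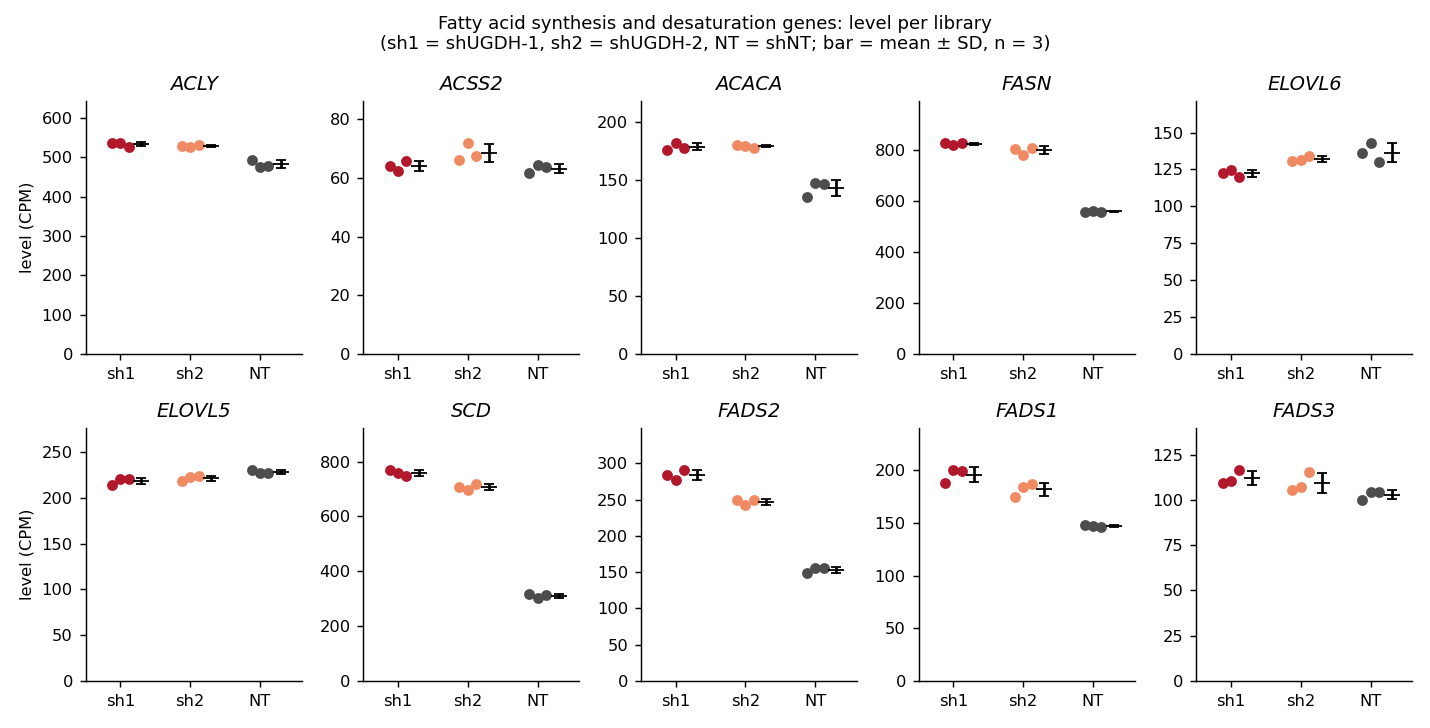
Level in CPM (vertical axes, from 0) of each enzyme gene in each library, with shUGDH-1 (sh1), shUGDH-2 (sh2) and shNT (NT) from left to right; points are libraries and bars are mean ± SD of 3. For SCD the knockdown libraries lie at 696.5 to 770.1 CPM and the shNT libraries at 301 to 316 CPM, while for ACSS2 the shUGDH-1 and shNT points overlap.

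Among the enzymes that make cytosolic acetyl-CoA, ACLY rose slightly and ACSS2 did not pass. Gene positions are those of GENCODE 29 on GRCh38. ACLY (chromosome 17, 41866908 to 41930542, minus strand) had 536, 536 and 527 CPM in the shUGDH-1 libraries and 529, 525 and 531 CPM in the shUGDH-2 libraries, against 493, 475 and 479 CPM in the shNT libraries. All knockdown libraries were above all shNT libraries by a small margin. ACLY rose 1.105-fold with shUGDH-1 (log2 fold change 0.14, SE 0.0214, adjusted p = 3.2e-07) and 1.095-fold with shUGDH-2 (log2 fold change 0.13, SE 0.0213, adjusted p = 5.1e-06), by edgeR. ACSS2 (chromosome 20, 34872146 to 34927962, plus strand) had 64.2, 62.3 and 65.6 CPM with shUGDH-1 and 66.1, 71.9 and 67.4 CPM with shUGDH-2, against 61.6, 64.2 and 63.8 CPM with shNT. The shUGDH-1 and shNT libraries overlapped, whereas each shUGDH-2 library was above each shNT library, as were 14.7% of all genes tested. The log2 fold change of ACSS2 was 0.017 with a 95% interval of -0.080 to 0.115 and an adjusted p of 0.85 with shUGDH-1. With shUGDH-2 it was 0.12 with a 95% interval of 0.023 to 0.213 and an adjusted p of 0.088, by edgeR.

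The carboxylase and the synthase rose with both hairpins, at larger fold changes than that of ACLY. ACACA (chromosome 17, 37084988 to 37406818, minus strand), which makes malonyl-CoA, had 176, 182 and 178 CPM in the shUGDH-1 libraries and 179.8, 179 and 178 CPM in the shUGDH-2 libraries, against 135, 147 and 146 CPM in the shNT libraries. The knockdown libraries lay close together and above all 3 shNT libraries, of which replicate 1 was the lowest. ACACA rose 1.25-fold with shUGDH-1 (log2 fold change 0.32, SE 0.0334, adjusted p = 1.4e-11) and 1.25-fold with shUGDH-2 (log2 fold change 0.33, SE 0.0331, adjusted p = 1.1e-11), by edgeR. FASN (chromosome 17, 82078333 to 82098332, minus strand), which makes palmitate, had 825, 819 and 823.5 CPM with shUGDH-1 and 803, 779.6 and 808 CPM with shUGDH-2, against 556.5, 561 and 557 CPM with shNT. The groups were far apart relative to their scatter, with coefficients of variation of 0.426%, 1.89% and 0.423% in shUGDH-1, shUGDH-2 and shNT. FASN rose 1.47-fold with shUGDH-1 (log2 fold change 0.56, SE 0.0197, adjusted p = 1.2e-32) and 1.43-fold with shUGDH-2 (log2 fold change 0.51, SE 0.0196, adjusted p = 2e-30), by edgeR. Counted from the highest fold change, it ranked 273 and 255 among the 12546 genes.

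Neither elongase rose. ELOVL6 (chromosome 4, 110045846 to 110199199, minus strand), which lengthens palmitate to stearate, had 122, 125 and 120.2 CPM in the shUGDH-1 libraries and 131, 131 and 134 CPM in the shUGDH-2 libraries, against 136, 143 and 129.9 CPM in the shNT libraries. The shUGDH-1 libraries were all below the shNT libraries, and the shUGDH-2 libraries lay within the shNT range. ELOVL6 fell with shUGDH-1 (log2 fold change -0.15, SE 0.0365, adjusted p = 0.0011, by edgeR). With shUGDH-2 its log2 fold change was -0.045 with a 95% interval of -0.116 to 0.027 and an adjusted p of 0.46. ELOVL5 (chromosome 6, 53267398 to 53349179, minus strand), which lengthens polyunsaturated chains, had 214, 220.1 and 221 CPM with shUGDH-1 and 218, 223 and 224 CPM with shUGDH-2, against 230.6, 227 and 228 CPM with shNT. Every knockdown library was below every shNT library, but so were 16.8% of all genes tested with shUGDH-1 and 13.9% with shUGDH-2. Its log2 fold change was -0.065 with a 95% interval of -0.122 to -0.009 and an adjusted p of 0.092 with shUGDH-1, and -0.044 with a 95% interval of -0.100 to 0.012 and an adjusted p of 0.32 with shUGDH-2, by edgeR. Relative to FASN, which makes its substrate, ELOVL6 was lower in every knockdown library: counts of ELOVL6 per count of FASN were 0.148, 0.152 and 0.146 in shUGDH-1 libraries and 0.163, 0.168 and 0.166 in shUGDH-2 libraries, against 0.245, 0.255 and 0.233 in shNT libraries. For each ratio of counts given here, an exact two-sided permutation test of each hairpin against shNT gave p = 0.1, the smallest p that 3 libraries against 3 allow.

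SCD (chromosome 10, 100347124 to 100364834, plus strand), the stearoyl-CoA desaturase that makes oleate and palmitoleate, had the largest fold change of the 10. SCD had 770.1, 757 and 749 CPM in the shUGDH-1 libraries and 708, 696.5 and 719 CPM in the shUGDH-2 libraries, against 316, 301 and 312 CPM in the shNT libraries. The lowest knockdown library was at more than 2 times the highest shNT library. SCD rose 2.45-fold with shUGDH-1 (log2 fold change 1.29, SE 0.0221, adjusted p = 1.2e-49) and 2.28-fold with shUGDH-2 (log2 fold change 1.19, SE 0.0221, adjusted p = 1.3e-47), by edgeR. It ranked 32 and 22 from the highest fold change among the 12546 genes. FASN, the synthase upstream of it, had the smaller fold change with each hairpin. Counts of SCD per count of FASN were 0.933, 0.925 and 0.910 in shUGDH-1 libraries and 0.882, 0.893 and 0.889 in shUGDH-2 libraries, against 0.567, 0.537 and 0.560 in shNT libraries, without overlap between either knockdown and shNT. Set against ELOVL6, counts of SCD per count of ELOVL6 were 6.30, 6.07 and 6.24 in shUGDH-1 libraries and 5.41, 5.31 and 5.35 in shUGDH-2 libraries, against 2.32, 2.11 and 2.40 in shNT libraries.

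The 3 FADS genes, which are neighbours on chromosome 11, had unequal fold changes. FADS2 (chromosome 11, 61792980 to 61867354, plus strand), which carries out the initial desaturation of linoleate and alpha-linolenate, had 285, 277 and 291 CPM in the shUGDH-1 libraries and 249.7, 243 and 249 CPM in the shUGDH-2 libraries, against 149, 156 and 155 CPM in the shNT libraries. The groups were fully separate, with shUGDH-1 the highest. FADS2 rose 1.85-fold with shUGDH-1 (log2 fold change 0.89, SE 0.0295, adjusted p = 5.5e-34) and 1.61-fold with shUGDH-2 (log2 fold change 0.69, SE 0.0298, adjusted p = 9.5e-28), by edgeR, and ranked 81 and 128 from the highest. FADS1 (chromosome 11, 61799625 to 61829318, minus strand), which acts later on the same chains and yields arachidonate, had 188, 200.4 and 199 CPM with shUGDH-1 and 175, 184 and 187 CPM with shUGDH-2, against 148, 147 and 146.5 CPM with shNT. Here too every knockdown library was above every shNT library. FADS1 rose 1.33-fold with shUGDH-1 (log2 fold change 0.41, SE 0.0328, adjusted p = 9.5e-16) and 1.24-fold with shUGDH-2 (log2 fold change 0.31, SE 0.0329, adjusted p = 7.4e-11), by edgeR. FADS3 (chromosome 11, 61873519 to 61892051, minus strand), known to desaturate the sphingoid base of ceramides, had 109, 110.3 and 117 CPM with shUGDH-1 and 105, 107 and 116 CPM with shUGDH-2, against 99.96, 104 and 104 CPM with shNT. Each knockdown library was above each shNT library, by little. This held for 17.3% of all genes with shUGDH-1 and 14.7% with shUGDH-2. FADS3 rose 1.09-fold with shUGDH-1 (log2 fold change 0.12, SE 0.0400, adjusted p = 0.023, by edgeR), while with shUGDH-2 its log2 fold change was 0.091 with a 95% interval of 0.011 to 0.171 and an adjusted p of 0.12. The call with shUGDH-1 ended without shNT replicate 1 (0.098, adjusted p = 0.11), without shUGDH-1 replicate 3 (0.096, adjusted p = 0.14) and with DESeq2 (0.12, adjusted p = 0.092).

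Counts of FADS2 per count of FADS1 were 1.515, 1.38 and 1.46 in shUGDH-1 libraries and 1.43, 1.32 and 1.33 in shUGDH-2 libraries, against 1.01, 1.06 and 1.06 in shNT libraries. In this ratio every knockdown library was above every shNT library. In GENCODE 29 on GRCh38, 5.57% of the exonic bases of FADS1 and 4.89% of those of FADS2 are shared with other genes, for the most part with each other on opposite strands. How the authors' counting treated strand is unknown from the labels, so some reads of either gene may have been counted for the other. ACLY shares 2.99% of its exonic bases with an antisense gene, and the remaining 7 genes share none. SCD and FADS2 each have a pseudogene in GENCODE (SCDP1 on chromosome 17 and FADS2P1 on chromosome 11), and the treatment of reads that match both copies is likewise unknown.

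**Figure D2:**
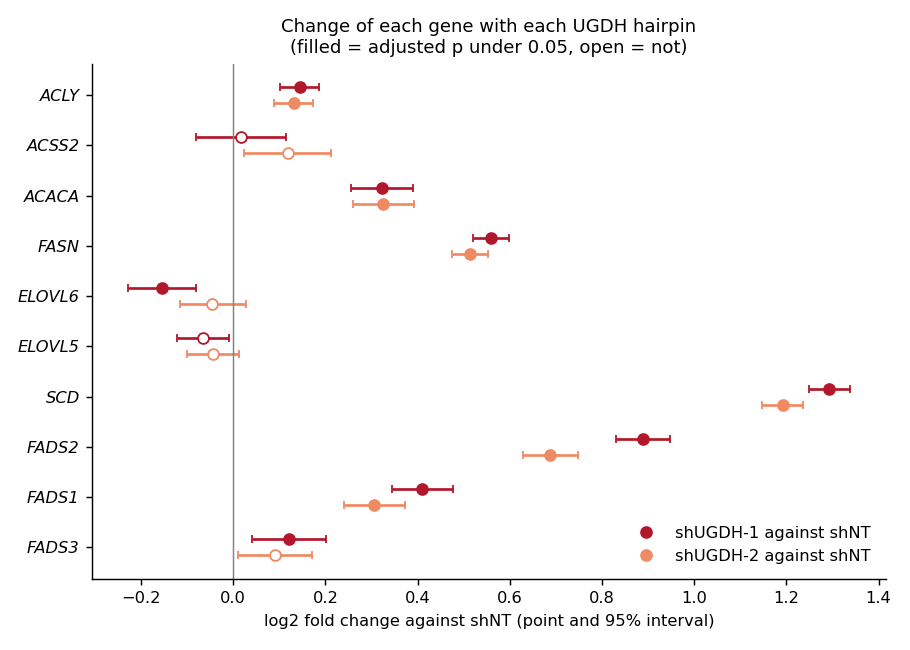
Log2 fold change against shNT (horizontal axis, point and 95% interval) of each enzyme gene with shUGDH-1 and shUGDH-2; filled points passed at an adjusted p under 0.05. SCD lies at 1.29 and 1.19, FADS2 at 0.89 and 0.69 and FASN at 0.56 and 0.51, while ACSS2 lies at 0.017 and 0.12 and ELOVL6 at -0.15 and -0.045.

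Protein-coding genes within 100 kb of the FADS genes were set beside them, a choice made after the FADS values had been seen. The tested ones were DAGLA, MYRF, TMEM258, FEN1, RAB3IL1 and FTH1. None passed with shUGDH-2, where 14.9% of all genes tested passed. Only FEN1 and MYRF passed with shUGDH-1, where 20.8% of all genes tested passed. With so few neighbours, these calls cannot show whether the change is confined to the FADS genes. FEN1, a flap endonuclease of DNA replication, rose with shUGDH-1 (log2 fold change 0.096, SE 0.0314, adjusted p = 0.02, by edgeR) and stood at 0.038 with shUGDH-2. Its call ended without shNT replicate 2 or 3, without shUGDH-1 replicate 2 or 3, and with DESeq2, at log2 values of 0.069 to 0.10. MYRF, a membrane-bound transcription factor gene, rose with shUGDH-1 (log2 fold change 0.255, SE 0.0856, adjusted p = 0.025, by edgeR) and stood at 0.029 with shUGDH-2. Its call ended without shNT replicate 2, without shUGDH-1 replicate 1 or 2, and with DESeq2, at log2 values of 0.17 to 0.25. FTH1, ferritin heavy chain, stood at -0.22 and 0.071 (adjusted p = 0.12 and 0.65), and TMEM258 at -0.044 and -0.009 (adjusted p = 0.73 and 0.95).

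**Figure D3:**
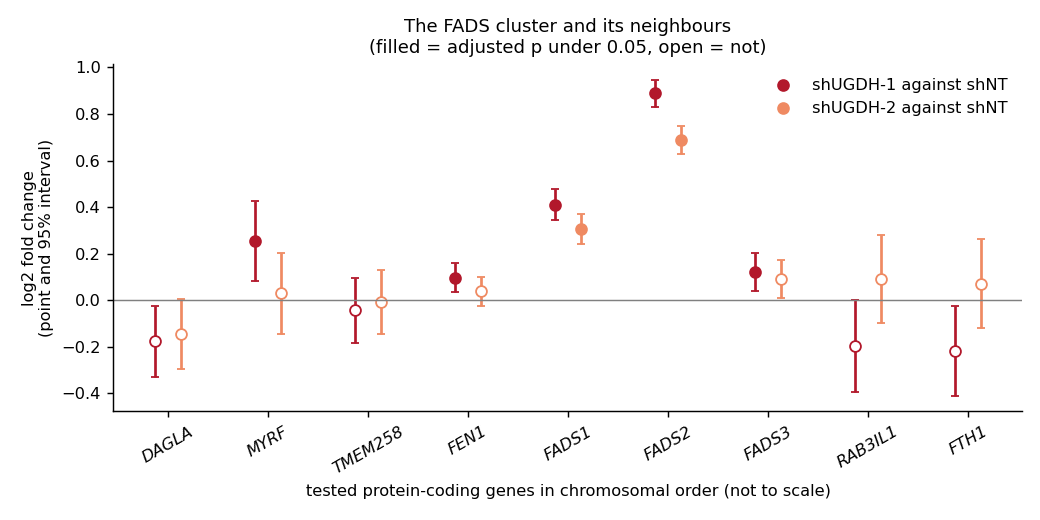
Log2 fold change against shNT (vertical axis, point and 95% interval) of the tested protein-coding genes at the FADS genes, in chromosomal order and not to scale, with shUGDH-1 and shUGDH-2; filled points passed at an adjusted p under 0.05. FADS2 (0.89 and 0.69) and FADS1 (0.41 and 0.31) passed with both hairpins, FADS3, FEN1 and MYRF with shUGDH-1 alone.

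Summed over the 10 genes, the transcripts took 0.328% of the counts with shUGDH-1 and 0.317% with shUGDH-2, against 0.233% with shNT. The summed level was 3289.8, 3288.0 and 3290.8 CPM in the shUGDH-1 libraries and 3164.0, 3140.0 and 3212.3 CPM in the shUGDH-2 libraries, against 2325.4, 2326.2 and 2321.4 CPM in the shNT libraries. In these sums long transcripts weigh more, since they count reads. SCD made up 46.5% and 46.9% of the summed difference from shNT for shUGDH-1 and shUGDH-2 in that order. FASN made up 27.4% and 28.1% of it, and FADS2 13.6% and 11.05%. The 9 genes other than SCD summed to 2530.8 ± 10.85 CPM with shUGDH-1 and 2464.5 ± 26.1 CPM with shUGDH-2, against 2014.7 ± 8.95 CPM with shNT (SD, n = 3 each).

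**Figure D4:**
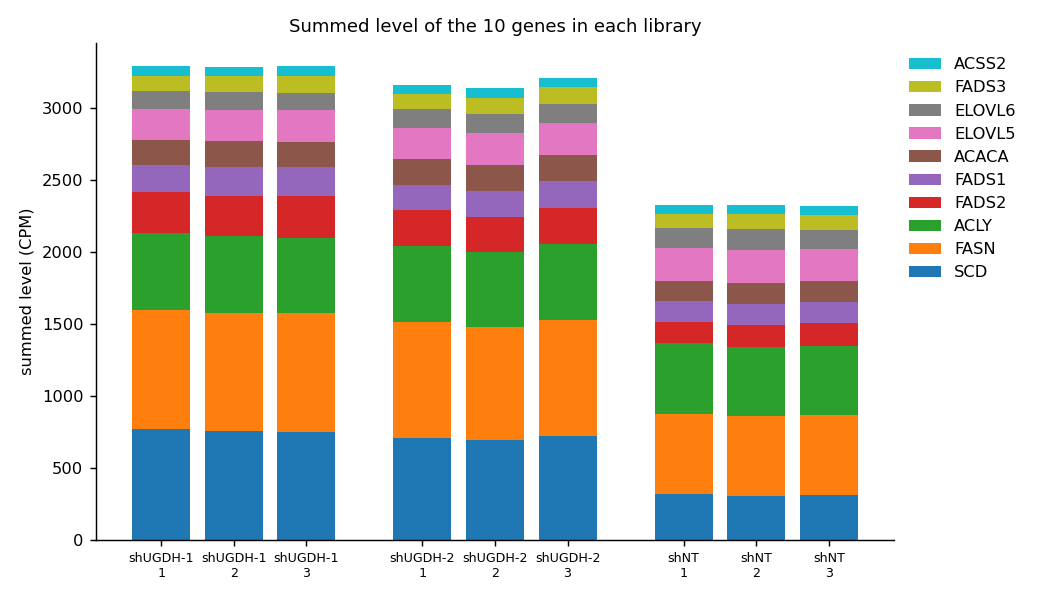
Summed level in CPM (vertical axis, from 0) of the 10 enzyme genes in each of the 9 libraries, shUGDH-1, shUGDH-2 and shNT from left to right, stacked by gene. SCD is 23.1% of the stack with shUGDH-1, 22.3% with shUGDH-2 and 13.3% with shNT.

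Levels of different genes were compared per length, as CPM per kilobase of the principal transcript in GENCODE 29. With shUGDH-1 the order in CPM per kilobase was SCD 141.5, ACLY 123, FASN 96.0, FADS2 78.35, ELOVL5 77.3, FADS3 63.0, FADS1 43.3, ACSS2 20.9, ELOVL6 19.0, and ACACA 18.7. FADS2 and ELOVL5 differed there by less than the SD of either, as did ELOVL6 and ACACA (SDs 1.92 and 1.26, and 0.348 and 0.314). With shUGDH-2 the order in CPM per kilobase was SCD 132, ACLY 122, FASN 93.0, ELOVL5 78.35, FADS2 68.1, FADS3 61.5, FADS1 40.2, ACSS2 22.3, ELOVL6 20.5, and ACACA 18.7. SCD led ACLY there by more than their spread (132 ± 2.06 and 122 ± 0.730, SD, n = 3 each). With shNT the order in CPM per kilobase was ACLY 111, ELOVL5 80.8, FASN 65.2, FADS3 57.8, SCD 57.75, FADS2 42.3, FADS1 32.5, ELOVL6 21.1, ACSS2 20.6, and ACACA 14.95. FADS3 and SCD did not differ beyond their spread in shNT on this length (57.8 ± 1.425 and 57.75 ± 1.40, SD, n = 3 each), nor did ELOVL6 and ACSS2 (21.1 ± 1.01 and 20.6 ± 0.463). These SDs cover scatter between libraries and not the choice of length. Per kilobase of merged exons, shNT had 16.4 for FADS3 and 57.75 for SCD, and 18.7 for ELOVL6 and 11.7 for ACSS2. The orders therefore depend on the length used. SCD thus ranked 1 of the 10 in both knockdowns and 5 in shNT, or 4 in shNT when the merged length of all annotated exons was used, which left it at rank 1 in both knockdowns.

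The hairpins differed in how far they moved some of the genes. Compared directly, shUGDH-2 libraries had lower SCD, FADS1 and FADS2 and higher ELOVL6 than shUGDH-1 libraries, 4 of the 10 genes, where 10.9% of all genes tested differed (5.36% higher and 5.51% lower with shUGDH-2). FADS2 was lower with shUGDH-2 (log2 fold change -0.20, SE 0.0276, adjusted p = 8.5e-08), as was SCD (log2 fold change -0.10, SE 0.0204, adjusted p = 0.0002), by edgeR. FADS1 was lower (log2 fold change -0.105, SE 0.0318, adjusted p = 0.021) and ELOVL6 higher (log2 fold change 0.11, SE 0.0365, adjusted p = 0.042), by edgeR, but neither call held throughout. The FADS1 call ended without shUGDH-1 replicate 2 (-0.084, adjusted p = 0.18), shUGDH-1 replicate 3 (-0.093, adjusted p = 0.11) or shUGDH-2 replicate 1 (-0.076, adjusted p = 0.19), and with DESeq2 (-0.10, adjusted p = 0.1). The ELOVL6 call ended without any 1 of the 6 knockdown libraries (log2 0.097 to 0.125, adjusted p 0.061 to 0.14), with DESeq2 (0.11, adjusted p = 0.14) and with limma-voom (0.11, adjusted p = 0.051). For FASN the difference was -0.046 with a 95% interval of -0.084 to -0.008 and an adjusted p of 0.12. For ACACA it was 0.005 with a 95% interval of -0.060 to 0.069 and an adjusted p of 0.96, and for ACLY -0.013 with a 95% interval of -0.056 to 0.029 and an adjusted p of 0.77, by edgeR. For UGDH itself the difference was -0.091 with a 95% interval of -0.344 to 0.163 and an adjusted p of 0.74.

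The 250 bases upstream of RefSeq (GRCh38.p14) start sites of these genes were read, on both strands, for motifs known from SREBP-regulated promoters. Upstream means here upstream of such a start site, which can lie inside the GENCODE span of the gene. There were 14 start sites for 9 of the 10 genes, all but FASN. The CCAAT box (CCAAT) was found upstream of 6 of the 9 genes, SCD, ACACA, ACLY, ACSS2, FADS3 and ELOVL5, against 37% of all 27305 genes with a window. The GC box (GGGCGG) was found upstream of 8 of the 9, all but ELOVL5, against 46.2% of all genes. A gene counts once however many start sites it has, since windows of nearby sites can overlap, as those of ACLY do. A gene with more start sites has more windows in which a motif can occur, which these shares do not adjust for. Per window, the CCAAT box was in 57.1% of the 14 and 32% of all, and the GC box in 78.6% and 42.6%. ACACA and ACSS2 each also have a start site without the CCAAT box. The 14 windows had a median GC content of 67.6%, against 58% for all. The sterol regulatory element (TCACNCCAC) was in none of the 14 windows and in 0.883% of all 35116 windows. A match this rare is likely to be absent from 14 windows of any genes. Only exact matches within 250 bases were read, and FASN had no window. Its absence therefore does not show that these genes lack such an element. The E-box (CACGTG) was upstream of ELOVL5 and of no other of the 9 genes, against 7.73% of all genes. The windows of the 2 genes with the largest rise and of the 2 elongases are printed to show that the CCAAT box was present at 2 positions each upstream of SCD and of ELOVL5 and not found upstream of FADS2 or ELOVL6. Each is 5′ to 3′ on the gene's strand, with CCAAT or its reverse complement ATTGG and CACGTG in capitals, and these matches do not overlap each other. The windows are chr10:100346983-100347232 (plus strand) for SCD, chr11:61816154-61816403 (plus strand, the downstream start site of 2) for FADS2, chr6:53348951-53349200 (minus strand) for ELOVL5 and chr4:110198616-110198865 (minus strand) for ELOVL6. By the GENCODE spans given above, the FADS2 and ELOVL6 windows lie wholly inside the gene and the SCD and ELOVL5 windows partly inside it.
SCD: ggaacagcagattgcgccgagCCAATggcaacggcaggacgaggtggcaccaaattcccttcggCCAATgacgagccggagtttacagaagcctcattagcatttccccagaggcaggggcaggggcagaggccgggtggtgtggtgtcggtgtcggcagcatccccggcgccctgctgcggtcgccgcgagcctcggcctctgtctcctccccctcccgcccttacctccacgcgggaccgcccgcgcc
FADS2: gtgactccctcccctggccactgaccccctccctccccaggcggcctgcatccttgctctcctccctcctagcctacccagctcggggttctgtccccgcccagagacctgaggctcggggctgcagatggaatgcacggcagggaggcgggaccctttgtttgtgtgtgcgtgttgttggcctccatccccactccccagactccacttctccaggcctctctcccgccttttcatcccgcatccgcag
ELOVL5: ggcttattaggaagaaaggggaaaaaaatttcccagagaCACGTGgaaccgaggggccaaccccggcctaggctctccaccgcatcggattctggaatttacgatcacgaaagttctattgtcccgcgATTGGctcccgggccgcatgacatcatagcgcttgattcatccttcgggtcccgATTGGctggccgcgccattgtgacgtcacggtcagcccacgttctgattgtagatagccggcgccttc
ELOVL6: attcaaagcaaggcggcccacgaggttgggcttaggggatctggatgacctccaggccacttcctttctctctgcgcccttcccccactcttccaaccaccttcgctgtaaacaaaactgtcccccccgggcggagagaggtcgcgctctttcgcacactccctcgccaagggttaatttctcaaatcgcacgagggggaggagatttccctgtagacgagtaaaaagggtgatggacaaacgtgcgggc

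Regulators of the enzymes were described from a list of 38 genes, of which 36 were tested. With shUGDH-1, 6 rose (16.67% of those tested, against 10.5% of all genes) and 4 fell (11.11%, against 10.3%). With shUGDH-2, 6 rose (16.67% of those tested, against 8.04% of all genes) and 2 fell (5.556%, against 6.81%). Median log2 fold changes were -0.010 and 0.021. Genes lower with shUGDH-1 numbered 2 with DESeq2. Genes lower with shUGDH-2 numbered 1 without shUGDH-2 replicate 1 or shNT replicate 1 or with DESeq2. INSIG1, the sterol-regulated retention protein, had 165, 165 and 159 CPM with shUGDH-1 and 158, 147 and 149 CPM with shUGDH-2, against 83.1, 80.2 and 85.1 CPM with shNT. Its knockdown libraries were far above its shNT libraries, and it rose with shUGDH-1 (log2 fold change 0.98, SE 0.0377, adjusted p = 9.8e-31) and likewise with shUGDH-2 (log2 fold change 0.87, SE 0.0378, adjusted p = 1.2e-27), by edgeR. SREBF1, whose product acts mainly on fatty acid genes, had 228, 232 and 241 CPM with shUGDH-1 and 239, 237 and 237 CPM with shUGDH-2, against 142, 156.5 and 159 CPM with shNT. SREBF1 rose with shUGDH-1 (log2 fold change 0.61, SE 0.0326, adjusted p = 1.3e-23) and likewise with shUGDH-2 (log2 fold change 0.64, SE 0.0323, adjusted p = 1.7e-24), by edgeR. SREBF2, whose product acts mainly on sterol genes, rose by 0.53 and 0.50 on the log2 scale. TRIB3, a pseudokinase gene, rose by 0.21 and 0.17, the call with shUGDH-2 ending without shUGDH-2 replicate 3 or shNT replicates 1 or 2 or with DESeq2 (log2 0.14 to 0.17, adjusted p 0.069 to 0.094). MBTPS2, a protease that releases SREBP, fell by 0.27 and 0.17, the call with shUGDH-2 ending without shUGDH-2 replicate 1 or shNT replicate 1 or with DESeq2 (log2 -0.17 to -0.12, adjusted p 0.07 to 0.16). SCAP, the SREBP escort, stood at 0.035 with shUGDH-1 and rose by 0.10 with shUGDH-2, a call that ended without shUGDH-1 replicates 2 or 3 or shUGDH-2 replicates 2 or 3 or shNT replicates 1 or 3 or with only the 2 groups compared, DESeq2 or limma-voom (log2 0.086 to 0.10, adjusted p 0.051 to 0.17). INSIG2 stood at 0.082 and 0.001, and the LXR genes NR1H2 and NR1H3 stood at 0.027 and 0.048 and at 0.13 and 0.23, and none of these passed. NFYC fell by 0.40 with shUGDH-1 and stood at 0.079 with shUGDH-2 (adjusted p = 3.3e-07 and 0.38, by edgeR). Compared directly, NFYC was higher with shUGDH-2 than with shUGDH-1 (log2 fold change 0.48, adjusted p = 4.1e-09, by edgeR). NFYA stood at -0.028 with shUGDH-1 and fell by 0.18 with shUGDH-2 (adjusted p = 0.7 and 0.0013). NFYB stood at -0.035 and -0.146 and did not pass. MLXIPL, which encodes the glucose-responsive factor ChREBP, was too low to test, at 0.528, 0.376 and 0.389 CPM with shUGDH-1, shUGDH-2 and shNT.

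Of 24 other genes of synthesis, elongation and desaturation, 16 were tested. With shUGDH-1, 2 rose (12.5% of those tested, against 10.5% of all genes) and 1 fell (6.25%, against 10.3%). With shUGDH-2, 1 rose (6.25% of those tested, against 8.04% of all genes) and 1 fell (6.25%, against 6.81%). Median log2 fold changes were 0.015 and -0.002. Genes higher with shUGDH-1 numbered 0 without shUGDH-1 replicates 1 or 2 or shNT replicates 1 or 2 or with DESeq2, and 1 without shUGDH-1 replicate 3 or shUGDH-2 replicate 1 or shNT replicate 3 or with a replicate block or limma-voom. Genes higher with shUGDH-2 numbered 0 without shUGDH-2 replicates 1 or 3 or shNT replicate 2 or with DESeq2. DEGS1, the ceramide desaturase, fell with shUGDH-1 (log2 fold change -0.17, SE 0.0355, adjusted p = 0.00019) and likewise with shUGDH-2 (log2 fold change -0.15, SE 0.0351, adjusted p = 0.0018), by edgeR. TECR, the reductase that ends each round of elongation, rose by 0.092 and 0.10. The TECR call with shUGDH-1 ended without shUGDH-1 replicates 1 or 2 or shNT replicates 1, 2 or 3 or with DESeq2 (log2 0.080 to 0.10, adjusted p 0.052 to 0.14), and that with shUGDH-2 without shUGDH-2 replicates 1 or 3 or shNT replicate 2 or with DESeq2 (log2 0.076 to 0.105, adjusted p 0.058 to 0.18). The elongase gene ELOVL7 rose by 0.33 with shUGDH-1, a call that ended without shUGDH-1 replicates 1, 2 or 3 or shUGDH-2 replicate 1 or shNT replicates 1 or 2 or with a replicate block, DESeq2 or limma-voom (log2 0.26 to 0.35, adjusted p 0.051 to 0.2), and stood at 0.24 with shUGDH-2 (adjusted p = 0.21).

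All 21 genes listed for the supply of citrate, acetyl-CoA and NADPH were tested. With shUGDH-1, 6 rose (28.57% of those tested, against 10.5% of all genes) and 1 fell (4.762%, against 10.3%). With shUGDH-2, 6 rose (28.57% of those tested, against 8.04% of all genes) and none fell (0%, against 6.81%). Median log2 fold changes were 0.030 and 0.062. Genes lower with shUGDH-1 numbered 2 without shNT replicate 1. Genes higher with shUGDH-2 numbered 2 with DESeq2, and 3 without shUGDH-2 replicates 1, 2 or 3 or shNT replicates 1 or 3. Genes lower with shUGDH-2 numbered 1 without shNT replicate 3. SLC25A1, which exports citrate from mitochondria, averaged 93.9 ± 2.58 CPM with shUGDH-1 and 86.5 ± 2.56 CPM with shUGDH-2, against 72.7 ± 0.470 CPM with shNT (SD, n = 3 each). It rose with shUGDH-1 (log2 fold change 0.37, SE 0.0430, adjusted p = 4.2e-10) and likewise with shUGDH-2 (log2 fold change 0.25, SE 0.0432, adjusted p = 1.6e-05), by edgeR. IDH1, a cytosolic source of NADPH, rose by 0.30 and 0.25. IDH2, its mitochondrial counterpart, rose by 0.33 and 0.19, the call with shUGDH-2 ending without shUGDH-2 replicates 1, 2 or 3 or shNT replicate 3 or with DESeq2 (log2 0.12 to 0.20, adjusted p 0.067 to 0.28). ACSS3, a mitochondrial acyl-CoA synthetase, rose by 0.42 and 0.41. The ACSS3 call with shUGDH-1 ended without shUGDH-1 replicate 2 or with DESeq2 (log2 0.38 to 0.42, adjusted p = 0.053), and that with shUGDH-2 without shUGDH-2 replicate 3 or shNT replicate 1 or with DESeq2 (log2 0.365 to 0.41, adjusted p 0.071 to 0.078). PDHA1, a subunit of pyruvate dehydrogenase, fell by 0.23 with shUGDH-1 and stood at -0.099 with shUGDH-2 (adjusted p = 2.3e-06 and 0.058).

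Of 22 genes for activation, uptake and binding of fatty acids, 13 were tested. With shUGDH-1, 3 rose (23.08% of those tested, against 10.5% of all genes) and 1 fell (7.692%, against 10.3%). With shUGDH-2, 4 rose (30.77% of those tested, against 8.04% of all genes) and 2 fell (15.38%, against 6.81%). Median log2 fold changes were 0.043 and 0.035. Genes higher with shUGDH-2 numbered 2 without shUGDH-2 replicate 3 or shNT replicate 3 or with DESeq2. ACSL3, an acyl-CoA synthetase of the endoplasmic reticulum and lipid droplets, rose with shUGDH-1 (log2 fold change 0.325, SE 0.0424, adjusted p = 1.5e-08) and likewise with shUGDH-2 (log2 fold change 0.27, SE 0.0423, adjusted p = 1.8e-06), by edgeR. DBI, the acyl-CoA binding protein, rose by 0.25 and 0.14, and ACSL5, another acyl-CoA synthetase, fell by 0.11 and 0.19. FABP5, a fatty acid binding protein, stood at -0.145 with shUGDH-1 (adjusted p = 0.24) and fell by 0.33 with shUGDH-2 (adjusted p = 0.0051). SLC27A1, a fatty acid transport protein, rose by 0.21 and 0.21. The SLC27A1 call with shUGDH-1 ended without shUGDH-1 replicates 2 or 3 or shNT replicate 3 or with DESeq2 (log2 0.15 to 0.21, adjusted p 0.051 to 0.18), and that with shUGDH-2 without shUGDH-2 replicate 3 or shNT replicates 2 or 3 or with DESeq2 (log2 0.16 to 0.21, adjusted p 0.051 to 0.15).

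Of 24 genes that place acyl chains into glycerolipids and sterol esters, 23 were tested. With shUGDH-1, 6 rose (26.09% of those tested, against 10.5% of all genes) and 3 fell (13.04%, against 10.3%). With shUGDH-2, 4 rose (17.39% of those tested, against 8.04% of all genes) and 2 fell (8.696%, against 6.81%). Median log2 fold changes were 0.013 and 0.044. Genes lower with shUGDH-1 numbered 1 without shUGDH-1 replicates 2 or 3 or shNT replicates 2 or 3 or with DESeq2. Genes lower with shUGDH-2 numbered 0 without shUGDH-2 replicate 3, and 1 without shUGDH-2 replicate 2 or shNT replicates 2 or 3 or with DESeq2. LPCAT3, which places polyunsaturated chains into phospholipids, averaged 36.3 ± 1.19 CPM with shUGDH-1 and 33.1 ± 1.25 CPM with shUGDH-2, against 25.05 ± 1.12 CPM with shNT (SD, n = 3 each). It rose with shUGDH-1 (log2 fold change 0.54, SE 0.0672, adjusted p = 3.8e-09) and likewise with shUGDH-2 (log2 fold change 0.40, SE 0.0677, adjusted p = 8.5e-06), by edgeR. LPIN1, a phosphatidate phosphatase, rose by 0.32 and 0.43, and LPCAT4, a lysophospholipid acyltransferase, by 0.30 and 0.27. SOAT1, which esterifies cholesterol, fell by 0.13 and 0.125, the call with shUGDH-2 ending without shUGDH-2 replicate 3 (log2 -0.094, adjusted p = 0.1). GPAM, the mitochondrial glycerol-phosphate acyltransferase, fell by 0.29 and 0.31. The GPAM call with shUGDH-1 ended without shUGDH-1 replicates 2 or 3 or shNT replicates 2 or 3 or with DESeq2 (log2 -0.30 to -0.23, adjusted p 0.062 to 0.17), and that with shUGDH-2 without shUGDH-2 replicates 2 or 3 or shNT replicates 2 or 3 or with DESeq2 (log2 -0.31 to -0.23, adjusted p 0.056 to 0.2).

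Of 26 genes of fatty acid oxidation, 25 were tested. With shUGDH-1, 4 rose (16% of those tested, against 10.5% of all genes) and 4 fell (16%, against 10.3%). With shUGDH-2, 1 rose (4% of those tested, against 8.04% of all genes) and 1 fell (4%, against 6.81%). Median log2 fold changes were 0.054 and -0.004. Genes higher with shUGDH-1 numbered 0 with DESeq2, and 1 without shUGDH-1 replicate 2 or shNT replicates 1 or 3, and 2 without shUGDH-1 replicate 3 or shNT replicate 2. Genes lower with shUGDH-1 numbered 2 without shUGDH-1 replicate 1 or shNT replicate 3 or with DESeq2. Genes higher with shUGDH-2 numbered 2 without shUGDH-1 replicate 1 or shNT replicate 2 or with upper-quartile scaling. CPT1A, the carnitine palmitoyltransferase that malonyl-CoA inhibits, averaged 77.1 ± 3.20 CPM with shUGDH-1 and 91.8 ± 4.81 CPM with shUGDH-2, against 106 ± 2.195 CPM with shNT (SD, n = 3 each). It fell with shUGDH-1 (log2 fold change -0.45, SE 0.0432, adjusted p = 8.2e-13) and likewise with shUGDH-2 (log2 fold change -0.20, SE 0.0415, adjusted p = 0.0003), by edgeR. CPT2, its partner in the inner membrane, rose by 0.305 and 0.39, the call with shUGDH-1 ending without shUGDH-1 replicate 1 or shNT replicate 1 or with DESeq2 (log2 0.23 to 0.30, adjusted p 0.06 to 0.12). HADH, a dehydrogenase of the cycle, fell by 0.20 with shUGDH-1 and stood at 0.050 with shUGDH-2 (adjusted p = 0.0062 and 0.62). ETFDH, which passes electrons to the respiratory chain, fell by 0.31 with shUGDH-1, a call that ended without shUGDH-1 replicate 1 or shNT replicate 3 or with DESeq2 (log2 -0.31 to -0.24, adjusted p 0.08 to 0.12), and stood at -0.076 with shUGDH-2 (adjusted p = 0.66). ACAA1, the peroxisomal thiolase, rose by 0.18 with shUGDH-1, a call that ended without shUGDH-1 replicates 2 or 3 or shNT replicates 1, 2 or 3 or with DESeq2 (log2 0.16 to 0.19, adjusted p 0.055 to 0.13), and stood at 0.087 with shUGDH-2 (adjusted p = 0.41).

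**Figure D5:**
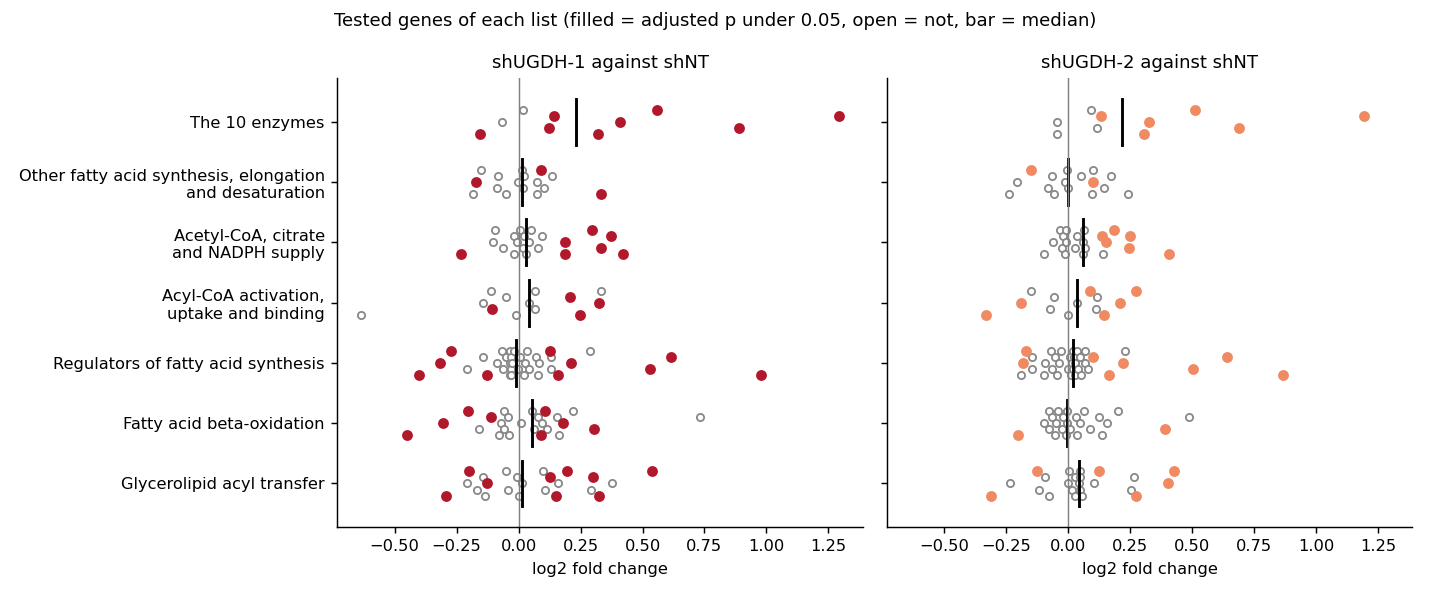
Log2 fold change against shNT (horizontal axes) of the tested genes of each list with shUGDH-1 (left) and shUGDH-2 (right); filled points passed at an adjusted p under 0.05 and bars are medians. The median of the 10 enzymes is 0.23 and 0.22, while the medians of the other 6 lists lie between -0.010 and 0.062.

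Among 10522 other tested genes that reached 5 CPM on average in some group, those whose 2 log2 fold changes against shNT lay nearest to the pair of SCD by Euclidean distance were CELF2, SPINT1 and TFAP2C. CELF2, an RNA-binding protein gene, stood at 1.27 and 1.12 with shUGDH-1 and shUGDH-2, SPINT1, a protease inhibitor gene, at 1.31 and 1.06, and TFAP2C, a transcription factor gene, at 1.15 and 1.23. Nearest to the pair of FADS2 were GRAMD1B, a sterol transfer protein gene, at 0.81 and 0.575, RIMS2 at 0.80 and 0.53, and DENND2A at 0.75 and 0.55. The distances were 0.0740 to 0.147 for SCD and 0.136 to 0.194 for FADS2. SPINT1, TFAP2C and RIMS2 reached 5 CPM only with a UGDH hairpin, and averaged 2.13, 2.88 and 4.71 CPM with shNT. The SEs of the log2 fold changes were 0.122 and 0.124 for CELF2, 0.201 and 0.207 for SPINT1, and 0.17 and 0.166 for TFAP2C. These SEs are larger than the distances of those genes from SCD, so which genes lie nearest to SCD is not resolved.

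Among markers of other cell types, those of luminal breast cells summed to more in both knockdowns. Of 8, 4 were tested and 3 rose with each hairpin, against 10.5% and 8.04% of all genes with shUGDH-1 and shUGDH-2. ERBB2 and KRT19 rose with both, EPCAM with shUGDH-1 and GATA3 with shUGDH-2. The list summed to 366 to 376 CPM with shUGDH-1 and 329.5 to 347.5 CPM with shUGDH-2, against 295 to 302 CPM with shNT. KRT19 alone averaged 191, 158 and 136 CPM with shUGDH-1, shUGDH-2 and shNT. PGR was at 0 in all libraries, ESR1 at no more than 1 count, FOXA1 at no more than 2 and CDH1 at no more than 13. The part of the luminal markers in the enzyme results was not tested. Of the adipocyte markers, ADIPOQ was at 0 in every library, and LIPE, the single one tested, averaged 10.2, 13.2 and 11.4 CPM with shUGDH-1, shUGDH-2 and shNT and did not pass. Leukocyte markers summed to 2.17 to 2.77, 1.85 to 2.46 and 1.84 to 1.87 CPM with shUGDH-1, shUGDH-2 and shNT, with CD3E at 0. Fibroblast markers summed to 41.2 to 44.0, 38.1 to 40.2 and 33.7 to 37.7 CPM, with DCN and LUM at 0, and of the 3 tested COL1A2 rose with shUGDH-1 and fell with shUGDH-2, and COL1A1 rose with shUGDH-2. The part of these markers in the enzyme results was not tested either.

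At an adjusted p under 0.05, 7 of the 10 enzyme genes were higher and 1 lower with shUGDH-1 in the authors' deposited table, and 6 were higher and none lower with shUGDH-2 in the authors' deposited table. In the authors' deposited tables SCD stood at 1.29 for shUGDH-1 and 1.19 for shUGDH-2. The log2 fold changes of the 10 genes in the authors' deposited tables differed from those above by -0.005 to 0.001. UGDH differed by more, at -2.68 and -2.75 in the authors' deposited tables, against -2.80 and -2.89 here. Both sets of values come from the same libraries, so their closeness is no independent check.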

How the data were processed

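RNA of 9 MDA-MB-231 libraries, 3 per hairpin, was sequenced as read pairs after a NuGen Ovation kit, per the labels' protocols. Counts per gene and library were deposited by the authors. They were assumed to be raw, from the name under which they were deposited. The submitters' processing notes name STAR, DESeq, DESeq2 and the build hg19. Software versions, the gene annotation and how counting treated strand were not given in the sources used here. Comparison tables deposited by the authors hold baseMean (a signal averaged over libraries), log2 fold changes and p-values, per the file headers.

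After filterByExpr (12546 genes, 99.93% of counts) and TMM scaling, edgeR 4.0.16 (R 4.3.3) was fitted robustly to all 9 libraries with 3 group means and 6 residual degrees of freedom. The contrasts set both UGDH hairpins against shNT, and the second UGDH hairpin against the first, with Benjamini-Hochberg adjustment. Symbols turned into dates (28 entries, 0.232% of counts) stayed unnamed. Pairs of libraries within groups had 1.19 to 1.87 times the counting variance, and each library was kept as its own. The highest ratios, 1.87 and 1.84, both involved shNT replicate 1. In edgeR the common coefficient of variation beyond counting noise was 0.0202. These values cannot tell separate cultures from several libraries of 1 culture. Depth limits precision mainly for low genes, and intervals (95%) cover scatter between these libraries.

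The enzyme genes, lists, markers and tests were chosen with earlier results of these data known. The text names UGDH, the 10 enzymes, SREBF1, SREBF2, SCAP, INSIG1, INSIG2, NR1H2, NR1H3 and MLXIPL, up to 5 genes per list with at least 1 CPM (called with both hairpins, ordered by the smaller change, then with 1), and the 3 genes nearest in pattern to SCD and to FADS2. NFYA, NFYB and NFYC are named as well, a choice made after their values had been seen. Positions, lengths and overlaps are from GENCODE 29 (GRCh38), another build than hg19, and no coordinate was converted. Alternatives were RLE and upper-quartile scaling, no filter, a replicate block, only the 2 groups compared, each library left out, DESeq2 1.42.0 and limma-voom (limma 3.58.1).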

Additional observations from a re-analysis of the deposited data

Results flagged for a closer look

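The hairpins' effects on 4 of the 10 genes differed in the direct test of shUGDH-2 against shUGDH-1 (edgeR, adjusted over all genes tested). In the same test 10.9% of all genes differed. On the log2 scale SCD stood at -0.101, FADS1 at -0.105, FADS2 at -0.201 and ELOVL6 at 0.109. FADS2 averaged 247 ± 3.92 CPM with shUGDH-2 and 284 ± 6.97 CPM with shUGDH-1 (SD, n = 3 each), without overlap. SCD averaged 708 ± 11.1 CPM with shUGDH-2 and 759 ± 10.5 CPM with shUGDH-1 (SD, n = 3 each), without overlap. FADS1 and FASN, which did not pass the direct test in the case of FASN, were also lower with shUGDH-2 without overlap. So were 13.9% of all genes tested. Of 16 alternatives, the calls held under 16 for FADS2, 16 for SCD, 12 for FADS1 and 8 for ELOVL6. UGDH averaged 7.16 ± 0.801 CPM with shUGDH-2 and 7.65 ± 0.367 CPM with shUGDH-1 (SD, n = 3 each).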

How the results depend on the processing

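Calls against shNT for SCD, FASN, ACACA, ACLY, FADS1 and FADS2 held with both hairpins under all 16 alternatives, as did that for ELOVL6 with shUGDH-1. SCD ranged from 1.28 to 1.31 and FASN from 0.56 to 0.565 with shUGDH-1. Leaving out 1 library gave 7 to 8 enzyme genes called with shUGDH-1, 6 in each case with shUGDH-2, and 2 to 4 between the hairpins (0 to 1 higher, 2 to 3 lower with shUGDH-2). Between the hairpins DESeq2 called 2 and 0 higher, and limma-voom called 0 higher. The 6 lists gave 71 calls over both hairpins, 44 with DESeq2 and 54 to 66 without 1 library. Of 51 calls for named list genes other than the NFY genes, 34 held throughout. Over all genes DESeq2 called 876 higher and 753 lower with shUGDH-1 (1318 and 1287 by edgeR), 611 and 400 with shUGDH-2 (1009 and 855), and 407 and 383 between the hairpins (672 and 691). Without 1 library the count lower with shUGDH-2 was 495 to 813. Values near 0 changed sign: ACACA between the hairpins was -0.007 without shUGDH-1 replicate 1 (to 0.021 without replicate 2), ACSS2 with shUGDH-1 was -0.003 without shNT replicate 1 (to 0.037 without shUGDH-1 replicate 2), and INSIG2 with shUGDH-2 was -0.049 without shNT replicate 2, -0.043 and -0.025 without shUGDH-2 replicates 2 and 3 (to 0.074 without replicate 1), and -0.000 with limma-voom. The cause was not tested.

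No pairing of the libraries by replicate number was seen: across genes, deviations of same-numbered libraries correlated at -0.041 to 0.069 and those of other libraries at -0.046 to 0.05. Scatter within groups was only 1.19 to 1.87 times the counting variance, so a weak pairing could have been missed. With the replicate block, 8 enzyme genes passed with shUGDH-1, 6 with shUGDH-2 and 4 between the hairpins, and the lists gave 69 calls.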
